A study of Homo sapiens with 6 samples.

Results

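The 10 genes described here encode DNA topoisomerases and factors that drive elongation by RNA polymerase II, and they were taken by name from the deposited tables of 58735 genes. TOP1, TOP2A and TOP2B are topoisomerases, CDK9 and CCNT1 form the elongation kinase P-TEFb, CDK12, CDK13 and CCNK form a further set of kinases and their cyclin, and SUPT5H and SUPT6H are elongation factors. All 10 were among the 14736 genes that passed the filter on low counts. The samples were wild-type MDA-MB-231 cells, a human triple-negative breast cancer (TNBC) line, which were treated for 24 h with vehicle (n = 3) or with 100 mg/l of Salvia chinensis Benth (SCH, n = 3). The labels name RPMI-1640 with fetal bovine serum as the medium, whereas the methods section names DMEM for this line. SCH is a plant extract of many compounds, the vehicle is not named in the sources used here, and a single line was studied. The vehicle libraries held 20291379, 18714240 and 18334857 assigned reads, and the SCH libraries 16836369, 17979434 and 18414924.

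Topoisomerases relieve the twisting of DNA that builds up ahead of and behind a moving polymerase. Type I enzymes such as TOP1 cut a single strand, and type II enzymes such as TOP2A and TOP2B pass a DNA duplex through a break in both strands. TOP2A is made mainly in dividing cells and acts on chromosomes in mitosis, whereas TOP2B is also present in cells that do not divide. RNA polymerase II pauses soon after it starts, P-TEFb releases it by phosphorylating the pausing factors and the tail of the polymerase, and CDK12 and CDK13 with cyclin K phosphorylate this tail further along the gene. Long genes depend most on these steps, which is the question that links the set to this experiment.

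Treatment with SCH moved these genes in both directions and by small amounts. SUPT6H, SUPT5H, TOP2B, CDK13, CDK9 and CDK12 rose, TOP2A and TOP1 fell, and the cyclins CCNT1 and CCNK did not pass the test. The changes past the threshold ran from a 12.3% rise of CDK12 to a 33.7% rise of SUPT6H, while TOP1 fell by 21.0% and TOP2A fell by 23.8%. Significance was an adjusted p under 0.05 in edgeR's quasi-likelihood test on the counts, adjusted over all tested genes. With this test 58.7% of all tested genes were past the threshold, 29.3% raised and 29.4% lowered (4318 and 4332 genes, or 5519 and 3295 with library size alone as the scale). These shares are the background for all counts of raised and lowered genes in the lists below. Of the 10 genes, 6 were raised and 2 lowered, a count that was not tested against the background, and 5 of the 10 moved by less than 0.31 on the log2 scale, the median absolute change of all tested genes. None reached 0.5 on the log2 scale, a size that 26.8% of all tested genes reached together with an adjusted p under the threshold. In FPKM, which scales fragments by gene length and library depth, the groups did not overlap for 8 of the 10, against 62.4% of all tested genes. In normalized CPM the same counts were 8 of the 10 and 62.4%.

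**Figure D1:**
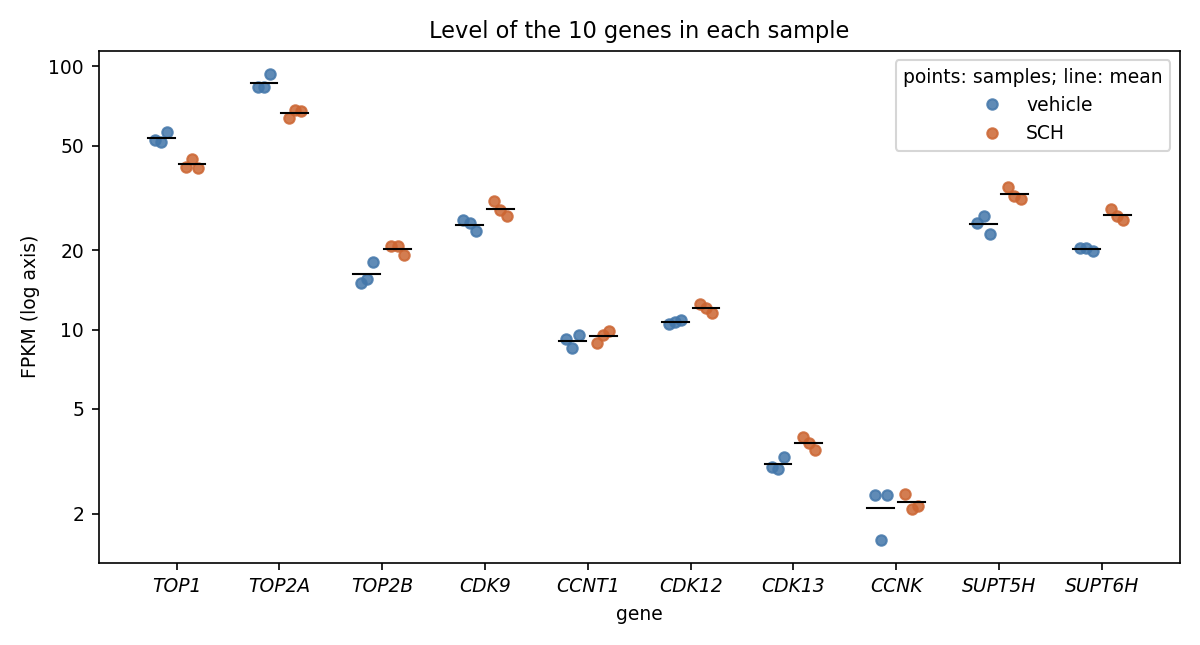
FPKM (vertical log axis) of each of the 10 genes in the 3 vehicle-treated and the 3 SCH-treated samples, with points for samples and a line for the group mean. The points of the groups are apart for 8 genes and overlap for CCNT1 and CCNK, and TOP2A is the highest of the 10 in every sample.

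The identity of the line was checked by its markers. VIM, CD44, AXL, MSN, CAV1 and KRT18, which this mesenchymal-like line is known to express, were each at 41.2 FPKM or more in every sample, and 5 of these 6, all except CD44, were lowered by SCH. ESR1, PGR, CDH1 and KRT5 were each at 0.053 FPKM or less, while ERBB2 (6.44 to 8.86 FPKM) and EPCAM (4.20 to 6.83 FPKM) were detected at low levels. The 6 markers of other cell types, among them PTPRC, CD3E, PECAM1, ALB and ACTA2, summed to between 0.665 and 0.920 FPKM, with ACTA2 the most abundant and CD3E and ALB at 3 counts or less. PTPRC was lowered, on 3 to 39 counts.

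Per length of transcript, the order of the 10 genes was the same in both groups. TOP2A stood first, followed by TOP1, SUPT5H, CDK9, SUPT6H, TOP2B, CDK12, CCNT1, CDK13 and CCNK. Mean levels in vehicle-treated cells ran from 86.8 FPKM for TOP2A to 2.10 FPKM for CCNK. SUPT5H and CDK9 overlapped in the vehicle-treated samples, CDK9 and SUPT6H overlapped in the SCH-treated samples, and all other neighbours in the order were apart. The place of CCNK is uncertain, since 59.5% of its exonic bases lie in exons of another gene. TOP2A lay at the 96.8th percentile of all tested genes by vehicle level, and CDK13 at the 41.7th.

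The topoisomerases split, since TOP2A and TOP1 fell while TOP2B rose. The 250 bases before the RefSeq start nearest to the start of each gene in the deposited table are shown here (GRCh38.p14, 5′ to 3′ on the gene's strand), as the 3 members of an enzyme class that moved apart, with CCAAT boxes on either strand in capitals. They lie at chr17:40417897-40418146 on the minus strand for TOP2A, chr3:25664908-25665157 on the minus strand for TOP2B and chr20:41028572-41028821 on the plus strand for TOP1.
TOP2A: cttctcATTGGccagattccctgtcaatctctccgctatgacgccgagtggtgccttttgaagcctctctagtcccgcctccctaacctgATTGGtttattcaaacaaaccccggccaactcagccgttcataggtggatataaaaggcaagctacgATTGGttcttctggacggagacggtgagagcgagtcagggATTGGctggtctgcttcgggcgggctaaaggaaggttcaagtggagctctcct
TOP2B: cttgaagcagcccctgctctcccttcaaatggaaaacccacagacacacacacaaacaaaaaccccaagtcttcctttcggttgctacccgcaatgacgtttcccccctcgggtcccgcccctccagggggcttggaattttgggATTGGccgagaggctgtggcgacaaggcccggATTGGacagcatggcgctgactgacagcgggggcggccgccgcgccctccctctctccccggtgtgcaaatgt
TOP1: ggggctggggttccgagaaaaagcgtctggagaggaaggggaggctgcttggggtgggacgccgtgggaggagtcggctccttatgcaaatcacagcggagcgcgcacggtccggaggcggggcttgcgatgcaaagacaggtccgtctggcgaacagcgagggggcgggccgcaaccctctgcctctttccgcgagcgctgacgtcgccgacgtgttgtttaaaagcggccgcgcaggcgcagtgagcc
The CCAAT box (CCAAT) occurs 4 times before TOP2A, each time on the opposite strand and so printed as ATTGG, 2 times before TOP2B, and not before TOP1. A second RefSeq start of TOP2B lies 535 bases inside the gene, and the window before it held no CCAAT or TTTGAA. Of 35116 RefSeq promoter windows of this length, 32.0% hold it at least once, 9.53% at least 2 times and 0.874% at least 4 times. Before TOP2A, TTTGAA, the core of the cell cycle element CHR, was matched 2 times and TATAAA 1 time. Of all windows, 13.3% hold TTTGAA at least once and 1.72% at least 2 times, and 10.7% hold TATAAA at least once. These are matches of letters and no measure of binding.

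TOP2A (ENSG00000131747, chromosome 17 from 40388516 to 40417950), the mitotic type II enzyme, was at 83.4, 83.5 and 93.5 FPKM in the vehicle-treated samples. It was at 63.4, 68.0 and 67.9 FPKM in the SCH-treated samples, each of them below every vehicle-treated sample. The log2 fold change was -0.39 (standard error 0.052, edgeR adjusted p = 7.63e-07) on 7305 to 11090 counts per sample. Genes of the G2/M phase, with which TOP2A is known to be transcribed, were lower too. Of the 20 listed, 18 fell and 0 rose, beside 29.4% lowered and 29.3% raised of all tested genes. The median log2 fold change of the 20 was -0.74, from 0.08 for CDK1 to -1.93 for PLK1, and 17 of them fell further than TOP2A. Their summed level was 1178 ± 10.4 FPKM (SD, n = 3) after vehicle and 616 ± 4.81 FPKM (SD, n = 3) after SCH, with CDC20 the most abundant. In cultures measured whole, fewer cells of a phase and less RNA per cell cannot be told apart, and the part of the cell cycle in the fall of TOP2A was not tested.

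TOP1 (ENSG00000198900, chromosome 20 from 41028818 to 41124487), the main nuclear type I enzyme, was at 52.5, 51.5 and 56.2 FPKM after vehicle. After SCH it was at 41.4, 44.6 and 41.2 FPKM, and the groups did not overlap. It fell by 0.34 on the log2 scale (standard error 0.052, edgeR adjusted p = 5.62e-06).

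TOP2B (ENSG00000077097, chromosome 3 from 25597905 to 25664907), the type II enzyme of dividing and resting cells alike, went the other way. Its levels were 15.01, 15.5 and 18.1 FPKM after vehicle and 20.8, 20.7 and 19.3 FPKM after SCH. All SCH-treated samples lay above the highest vehicle-treated sample, vehicle replicate 3, and the log2 fold change was 0.31 (standard error 0.062, edgeR adjusted p = 1.53e-04).

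Because these topoisomerases moved apart, the ratios between their transcripts differed between the groups. The ratio of TOP2B to TOP2A in FPKM was 0.180, 0.186 and 0.194 in the vehicle-treated samples and 0.327, 0.304 and 0.284 in the SCH-treated samples, so the TOP2A transcript stood above that of TOP2B in all 6. On the log2 scale, with 1 added to each FPKM value, the ratio rose by 0.69 (standard error 0.064). The ratio of TOP1 to TOP2B went from 3.50, 3.32 and 3.10 after vehicle to 1.99, 2.15 and 2.14 after SCH, a log2 difference of -0.63 (standard error 0.058). In each pair the groups did not overlap (exact two-sided permutation test, p = 0.1, which is the smallest that 3 samples against 3 allow, and 0.175 adjusted over 7 pairs).

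Of 5 topoisomerases tested, 1 rose and 2 fell, and the remaining ones gave no call. TOP1MT, the mitochondrial type I enzyme, was at 5.45 ± 0.319 FPKM after vehicle and 5.36 ± 0.438 after SCH (SD, n = 3 each). TOP3A, which resolves crossed strands together with BLM, was at 16.1 ± 0.250 and 17.5 ± 0.470 FPKM (SD, n = 3 each). The TOP3A groups did not overlap, but its log2 fold change of 0.11 had an adjusted p of 0.0605 in edgeR. TOP3B was listed at 0.11 FPKM or less and was not tested, and 90.7% of its exonic bases lie in an exon of an antisense gene. Among 10 genes that assist topoisomerases or repair trapped ones, 2 rose and 3 fell. TDP1, which removes TOP1 from DNA ends, had the largest change of the list, from 10.8 ± 0.425 to 6.45 ± 0.239 FPKM (SD, n = 3 each). Its log2 fold change was -0.75 (standard error 0.062, edgeR adjusted p = 3.34e-10), whereas TDP2, which acts on trapped type II enzymes, had 0.14 and an adjusted p of 0.0699 in the same fit. TDRD3, the partner of TOP3B, fell by 0.50, and BLM and ZNF451, a SUMO ligase for trapped type II enzymes, rose by 0.38 and 0.26 on the log2 scale. The call of ZNF451 was lost without vehicle replicate 1 (0.18) and with limma on log2 FPKM.

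**Figure D2:**
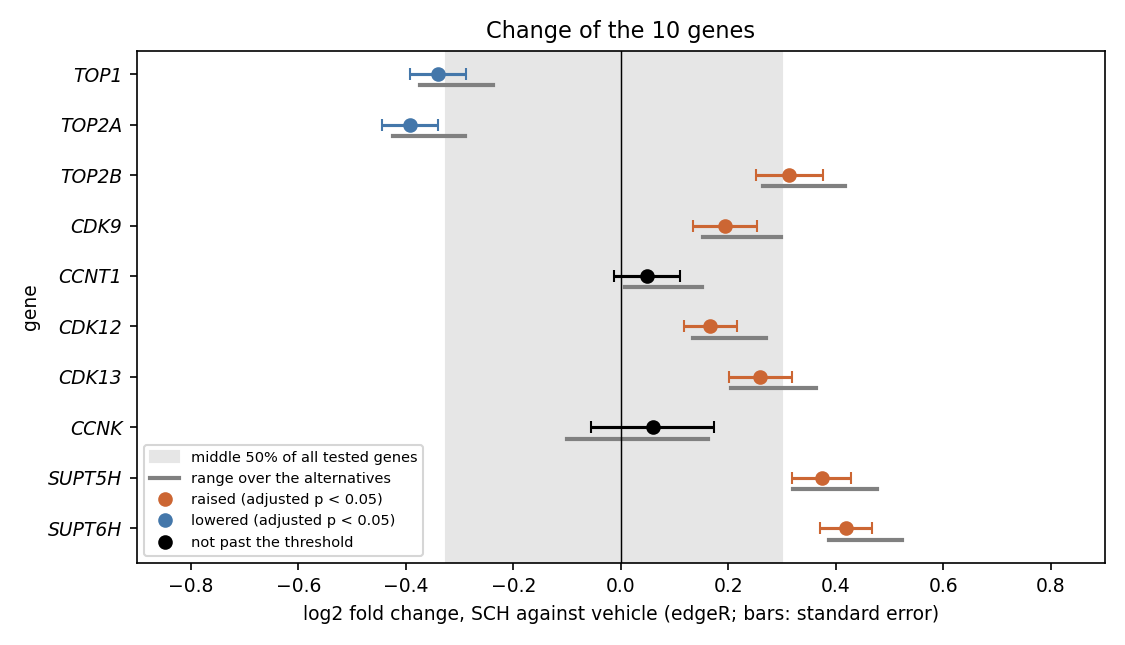
Log2 fold change of SCH against vehicle (horizontal axis) for each of the 10 genes, as points with standard errors from edgeR, with a grey line for the range over the alternative settings and a shaded band for the middle 50% of all tested genes. TOP2A and TOP1 lie left of 0, the 6 raised genes and CCNT1 lie right of 0 with their whole range, and the range of CCNK crosses 0.

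Of P-TEFb, the kinase rose slightly and its cyclin did not pass the test. CDK9 (ENSG00000136807, chromosome 9 from 127785679 to 127790787) was at 26.0, 25.4 and 23.7 FPKM after vehicle and at 30.8, 28.6 and 27.1 FPKM after SCH. The lowest SCH-treated sample lay just above the highest vehicle-treated sample, and the log2 fold change was 0.19 (standard error 0.059, edgeR adjusted p = 0.00725). CCNT1 (ENSG00000129315, chromosome 12 from 48688458 to 48716998), which encodes cyclin T1, was at 9.18, 8.51 and 9.53 FPKM after vehicle and 8.89, 9.54 and 9.84 FPKM after SCH. These groups overlapped, and the log2 fold change of 0.05 had a 95% interval from -0.08 to 0.18 (edgeR adjusted p = 0.514). CCNT2, the paralogue cyclin T2, was at 2.95 ± 0.154 and 2.93 ± 0.326 FPKM (SD, n = 3 each). The ratios of CCNT1 to CCNT2 and of CCNT1 to CDK9 overlapped between the groups, with log2 differences of 0.06 (standard error 0.049) and -0.14 (standard error 0.117).

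Of 9 genes of P-TEFb and its 7SK regulators, 3 rose and 2 fell, and the largest change was in an inhibitor. HEXIM1, which holds P-TEFb inactive on the 7SK RNA, was at 27.0, 26.3 and 25.5 FPKM in the vehicle-treated samples and at 50.6, 44.9 and 45.6 FPKM in the SCH-treated samples. Every SCH-treated value was well above every vehicle-treated one, and the log2 fold change was 0.83 (standard error 0.054, edgeR adjusted p = 7.24e-12). The antisense gene that shares 14.4% of the HEXIM1 exonic bases had at most 2 counts in any sample. Per length, HEXIM1 and CDK9 were nearly level after vehicle, with ratios of 1.036, 1.034 and 1.073, and HEXIM1 stood above CDK9 after SCH, with ratios of 1.64, 1.57 and 1.68. This log2 ratio rose by 0.62 (standard error 0.033, groups apart, exact two-sided permutation p = 0.1 and 0.175 adjusted over 7 pairs). HEXIM2, its low paralogue, was called lowered at -0.62 on 21 to 50 counts, with overlapping groups and a share of 50.3% of its exonic bases with other genes, and the call was lost in 9 of the alternatives. Of the other 7SK factors, MEPCE, which caps the RNA, rose by 0.18 (edgeR adjusted p = 0.00642), while LARP7, which binds its end, had a log2 fold change of 0.04 and did not pass. PPM1G, a phosphatase that frees P-TEFb, fell by 0.25 on the log2 scale.

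The kinases CDK12 and CDK13 rose, and their cyclin could not be followed well. CDK12 (ENSG00000167258, chromosome 17 from 39461511 to 39564907) was at 10.5, 10.7 and 10.8 FPKM after vehicle and 12.5, 12.0 and 11.6 FPKM after SCH. Its groups were apart by less than 1 FPKM, with a log2 fold change of 0.17 (standard error 0.050, edgeR adjusted p = 0.00600). CDK13 (ENSG00000065883, chromosome 7 from 39949646 to 40099580), the longest of the 10 genes, was at 3.01, 2.95 and 3.28 FPKM after vehicle and 3.91, 3.69 and 3.50 FPKM after SCH. Here too the groups did not overlap, and the log2 fold change was 0.26 (standard error 0.059, edgeR adjusted p = 5.97e-04). CDK12 stood above CDK13 per exonic length in all samples. With 1 added to each FPKM value, their log2 ratio differed between the groups by -0.05 (standard error 0.031), with overlap. The size of this difference depended on the value added. With nothing added, the FPKM ratios were 3.48, 3.64 and 3.31 after vehicle and 3.19, 3.26 and 3.32 after SCH.

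CCNK (ENSG00000090061, chromosome 14 from 99481169 to 99535044), which encodes cyclin K, had 389, 243 and 357 counts after vehicle and 350, 329 and 346 counts after SCH. In FPKM these were 2.35, 1.59 and 2.36 after vehicle and 2.38, 2.09 and 2.14 after SCH. Vehicle replicate 2 was low, and the groups overlapped in FPKM with or without it. The log2 fold change was 0.06 with a 95% interval from -0.18 to 0.30 (edgeR adjusted p = 0.679), which allows a rise as large as that of CDK13. In the annotation, 59.5% of the exonic bases of CCNK lie in exons of CCDC85C on the opposite strand. CCDC85C had 1630, 1529 and 1398 counts after vehicle and 1009, 942 and 975 counts after SCH. The strand setting of the counting is not given in the sources used here, so the level of CCNK is uncertain, and the part of the overlap in its result was not tested.

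SUPT5H and SUPT6H had the largest rises of the 10. SUPT5H (ENSG00000196235, chromosome 19 from 39436156 to 39476670) encodes the large subunit of DSIF, which pauses the polymerase and, once phosphorylated by P-TEFb, travels with it. It was at 25.3, 26.9 and 23.1 FPKM after vehicle and 34.8, 32.1 and 31.2 FPKM after SCH. All SCH-treated samples were above all vehicle-treated samples, and the log2 fold change was 0.37 (standard error 0.055, edgeR adjusted p = 3.84e-06). SUPT6H (ENSG00000109111, chromosome 17 from 28662091 to 28702684), a histone chaperone that binds the elongating polymerase, was at 20.5, 20.4 and 19.9 FPKM after vehicle and 28.7, 26.9 and 26.0 FPKM after SCH. These groups did not overlap either, with a log2 fold change of 0.42 (standard error 0.048, edgeR adjusted p = 1.01e-07).

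SUPT4H1, the small subunit of DSIF, could not be compared with SUPT5H. It had 0 or 1 count in every sample and was not tested, and 89.9% of its exonic bases lie in exons of other genes, among them the same-strand gene AC004687.2 with 63.7%. The pair of SUPT5H and SUPT4H1 was therefore computed but is not interpreted. Of the NELF subunits, which hold the paused polymerase, NELFCD fell by 0.29 and NELFA by 0.19 on the log2 scale, NELFB and NELFE did not pass the test, and the NELFA groups overlapped in FPKM. The NELFA call was lost in 7 alternatives, among them library size alone (-0.08), DESeq2 (-0.17) and the fits without vehicle replicate 1 (-0.13), SCH replicate 2 (-0.16) or SCH replicate 3 (-0.13).

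**Figure D3:**
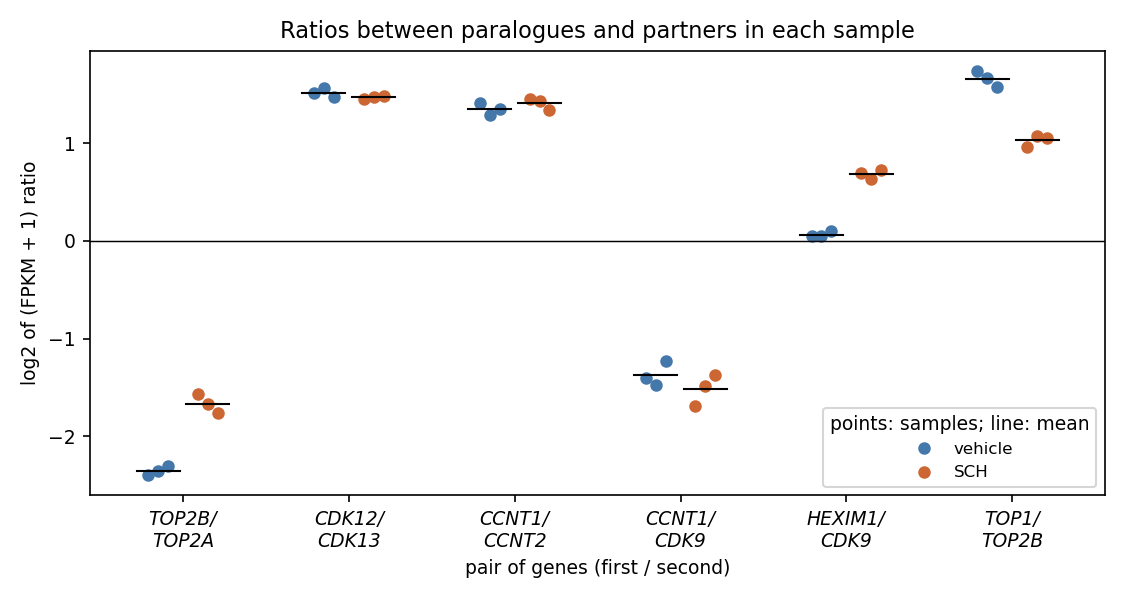
Log2 ratio of FPKM, with 1 added to each value, for 6 pairs of paralogues, partners or topoisomerases in each sample, with a line for the group mean. The ratios of TOP2B to TOP2A and of HEXIM1 to CDK9 are higher in every SCH-treated sample, that of TOP1 to TOP2B is lower, and the other 3 overlap between the groups.

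The other genes of the elongation machinery served as the surroundings of the set. Over 9 lists and without the 10 members, 66 of 68 genes were tested, of which 17 rose, 15 fell and 34 did not pass, with a median log2 fold change of 0.0072. Thus 48.5% of them were called, beside 58.7% of all tested genes, and the difference was not tested. The super elongation complex, which brings P-TEFb to genes, had the most one-sided counts. Of its 10 tested genes, 6 rose and 0 fell, with a median of 0.36, among them the scaffolds AFF1 (0.54) and AFF4 (0.44) and the factors EAF1 (0.58) and ELL2 (0.29). EAF2 had the largest value, 0.79, on 13 to 35 counts. The background of raised genes was 29.3%, and 40.8% of the exonic bases of EAF1 lie in exons of other genes.

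RNA polymerase II itself changed mainly in its largest subunit. POLR2A, which carries the tail that these kinases phosphorylate, went from 21.9, 23.0 and 21.8 FPKM after vehicle to 43.2, 40.9 and 38.9 FPKM after SCH. Its log2 fold change of 0.88 (standard error 0.050, edgeR adjusted p = 6.38e-13) was the largest in any elongation list, with the groups far apart. Of the 12 subunits, 3 rose and 3 fell, with a median of 0.00025. POLR2H rose by 0.20, POLR2E fell by 0.29, and POLR2I fell by 0.33, with groups that overlapped in FPKM and with 79.6% of its exonic bases covered by exons on the opposite strand.

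In the PAF complex, which accompanies the polymerase, CTR9 rose by 0.52, WDR61 fell by 0.25 and the other 4 did not pass. The WDR61 call was lost with DESeq2 (-0.24), without vehicle replicate 2 (-0.19), without SCH replicate 2 (-0.22) and with library size alone as the scale (-0.15), where 4 genes of the complex rose and 0 fell. Among 9 histone chaperones and elongation factors, SUPT6H included, 3 rose and 4 fell. ELOF1 rose by 0.29, whereas SSRP1, a subunit of the chaperone FACT, fell by 0.50. Of the TFIIH and Mediator kinases and their partners, 1 of 6 was called. CCNH, the cyclin of CDK7, went from 6.65 ± 0.203 to 4.09 ± 0.483 FPKM (SD, n = 3 each), while 22.3% of the gene's exonic sequence is shared with other genes and CDK7 had a log2 fold change of 0.02. Among 13 phosphatases of the polymerase tail and termination factors, 3 rose and 2 fell. PPP1CA rose by 0.24, and PCF11 and SSU72 fell by 0.32 and 0.24.

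**Figure D4:**
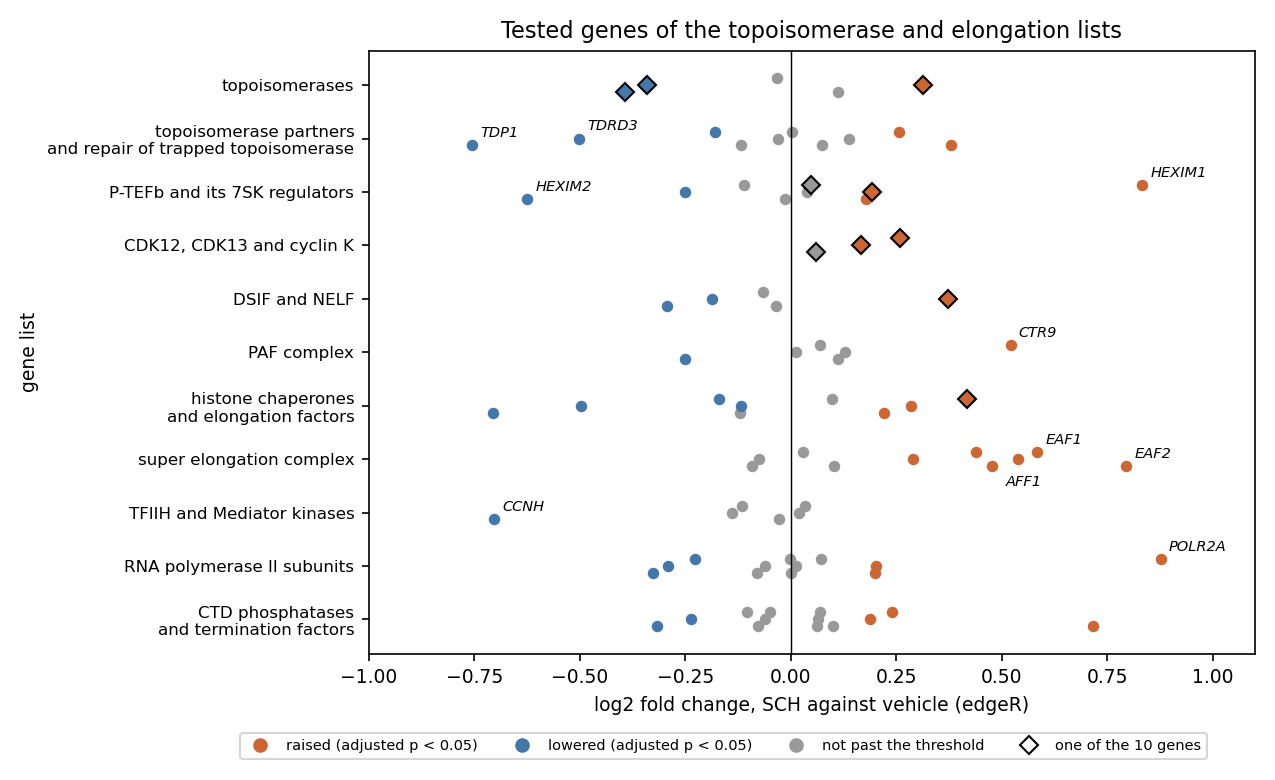
Log2 fold change of SCH against vehicle (horizontal axis) for the tested genes of the topoisomerase and elongation lists, 1 list per row, with diamonds for the 10 members and colours for the call. The super elongation complex holds 6 raised genes and 0 lowered, while the RNA polymerase II subunits hold 3 of each with POLR2A at 0.88.

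A pair of lists of genes described as sensitive to these kinases was read beside them. Of the DNA repair genes described as dependent on CDK12, 7 of 8 were tested, 3 rose and 1 fell. Among them BRCA1 was at 0.27, ATM at 0.26 and FANCD2 at -0.25. Of all tested genes, 29.3% were raised and 29.4% lowered, 58.7% together. Of 8 short-lived transcripts described as sensitive to inhibition of CDK9, 5 rose and 2 fell. The counts of these 2 lists were not tested against the shares of all tested genes. EGR1 (1.92) and JUNB (1.70) rose, MYC (-0.69) and FOSL1 (-0.61) fell, and MCL1 rose by 0.18. With library size alone as the scale, 5 of the repair genes rose and 0 fell, since FANCD2 was then at -0.15 and no longer past the threshold.

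Genomic span was the property of interest for this set. The 10 genes span 5.11 kb (CDK9) to 150 kb (CDK13), and 0 of them exceed 200 kb. The 1021 tested genes above 200 kb had a median log2 fold change of -0.36, and the others 0.01. In the span deciles that hold the 10 genes, the median of all tested genes lay between 0.0072 and 0.03. TOP1, CDK12 and CDK13 share the decile from 90.0 to 155 kb, and TOP1 fell while the kinases rose. Of the 4 elongation genes over 200 kb, AFF1 and MLLT3 (0.48) rose, and MNAT1 (-0.12) and CDK19 (-0.14) did not pass the test.

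**Figure D5:**
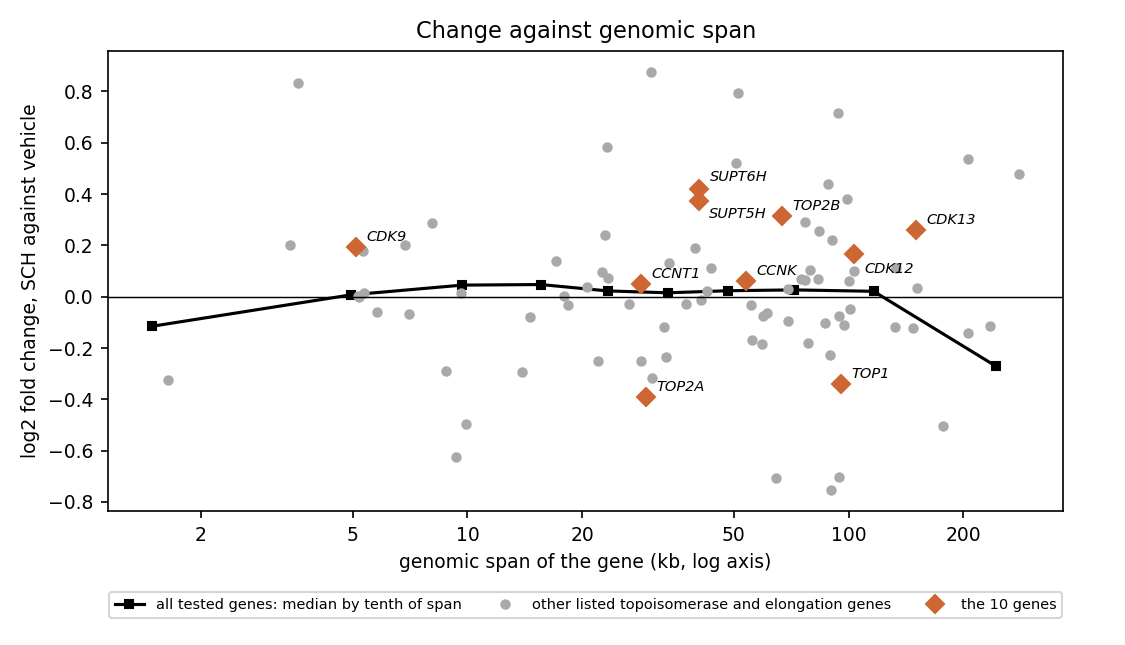
Log2 fold change of SCH against vehicle against genomic span in kb (log axis), with diamonds for the 10 genes, grey points for the other listed topoisomerase and elongation genes, and black squares for the median of all tested genes in each decile of span. The 10 genes lie between 5.11 and 150 kb, where the medians are near 0, and fall on both sides of them.

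Of the motifs searched for, only the GC box was held by most of the promoter windows of the 10 genes. The GC box (GGGCGG) was matched before 9 of the 10, all except CDK12, against 42.6% of all windows. CCAAT was found before TOP2A, TOP2B, CCNT1 and CCNK, and the ETS motif (CCGGAAG) before CDK9 and CCNT1, against 8.52% of windows. The CRE motif (TGACGTC) was matched before TOP1, against 3.12%, and TTTGAA also before TOP2B and SUPT5H. No window of the 10 held the E2F motifs (TTCCCGC or TTGGCGC), the AP-1 motif (TGACTCA), the NRF1 motif (GCATGCG) or the CHR variant (TTCGAA), which are in 5.52%, 2.56%, 4.20%, 3.39% and 1.19% of windows. The RefSeq start used for SUPT5H lies 9426 bases from the start of its gene in the deposited table. CCNT1, CDK13, SUPT5H and TOP2B have a second RefSeq start, and of all motifs searched the windows before these held only a GC box, before SUPT5H and TOP2B.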

How the data were processed

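For each of the 6 samples, raw counts and FPKM values were deposited by the authors, from mRNA selected with poly-T beads. The submitters' processing notes name CASAVA 1.8, HISAT2 2.0.5, featureCounts 1.5.0-p3, DESeq2 1.20.0 and GRCh38. Filters and the strand setting are not given in the sources used here. Samples were grouped by their titles.

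Counts were fitted with edgeR 4.0.16 in R 4.3.3 (TMM, filterByExpr, quasi-likelihood test of SCH against vehicle, no covariates) over the whole table, with Benjamini-Hochberg adjustment. Intervals use the moderated t quantile. Standard errors were derived from the F statistic and the log2 fold change. FPKM ratios used a pseudocount of 1 and an exact permutation test. Overlap of exons was taken from GENCODE 29 (GRCh38), in which all 145 listed genes have the deposited start and end, and promoters from RefSeq (GRCh38.p14), searched on both strands. The fits were tested on simulated data. Counts of samples within a group differed by more than sampling noise (chi-square over its degrees of freedom from 2.12 to 5.75).

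The members, lists and tests were chosen with earlier results of these data known. The genes named are the 10 members, their paralogues and direct partners, and in each list the 2 raised and 2 lowered genes with the smallest p. The rule on genes nearest in pattern named none, since no member reached 0.5 on the log2 scale. AFF4, CDK1, CDK7, CDC20, EAF2, ELL2, MCL1, MLLT3, MNAT1, CDK19, NELFB, NELFE, TDP2, CCDC85C and AC004687.2 were named after their values were seen. Outside the rule, VIM, CD44, MSN, KRT18, ESR1, PGR, CDH1, KRT5, CD3E, PECAM1, ALB and ACTA2 were named as markers from the lists used to check the line. Alternatives were RLE and upper quartile factors, library size only, no filter, a minimum of 10 counts per sample, DESeq2 (version 1.42.0), limma (version 3.58.1) on log2(FPKM + 1) and log2(FPKM + 0.1), the replicate block and each sample left out. Python 3.11.15 drew the figures. The deposited gene length was used for an alternative of the ratios, on counts per kb scaled by TMM. The design text calls the samples biological repeats without describing the cultures, so p-values measure the spread between these samples, which may be technical. Some genes that the rule names are not reported here.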

Additional observations from a re-analysis of the deposited data

How the results depend on the processing

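The calls of 9 of the 10 genes held under every alternative, with log2 fold changes from -0.37 to -0.24 for TOP1, -0.42 to -0.29 for TOP2A, 0.26 to 0.42 for TOP2B, 0.15 to 0.30 for CDK9, 0.13 to 0.27 for CDK12, 0.21 to 0.36 for CDK13, 0.32 to 0.48 for SUPT5H and 0.39 to 0.52 for SUPT6H. CCNK, without a call in any of them, ran from -0.10 to 0.16. With library size only, CCNT1 passed the threshold at 0.15 and 7 of the 10 genes were raised. Replicate numbers did not pair the samples (correlations of deviations from the group means of 0.046, -0.022 and 0.022 for numbers 1, 2 and 3), and samples did not all correlate best with their own number. With the replicate block, 4355 of all tested genes were raised and 4350 lowered, and no call of a named gene changed. The CDK12 to CDK13 difference was -0.087 with a pseudocount of 0.1.

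Counts in small lists moved with the setting, and the cause was not tested. With library size only, the genes raised were 2 topoisomerases, 4 topoisomerase partners, 4 PAF genes, 7 termination factors, 5 repair genes, 1 G2/M gene and 1 line marker, and those lowered were 1 P-TEFb gene, 1 DSIF or NELF gene, 0 PAF genes, 2 histone chaperones and 0 repair genes. With limma on either FPKM scale there were 2 topoisomerases, 1 partner and 2 PAF genes raised, and 1 P-TEFb and 1 DSIF or NELF gene lowered. DESeq2 gave 1, 1 and 0 lowered in P-TEFb, DSIF or NELF, and PAF. Without the filter 1 P-TEFb gene was lowered, and with at least 10 counts in every sample 0 of the other cell type markers. Leaving out each sample gave 1 to 3 partners, 1 to 2 PAF genes and 0 to 1 G2/M genes raised, and 1 to 2 P-TEFb genes, 1 to 2 DSIF or NELF genes, 0 to 1 PAF genes, 2 to 3 histone chaperones and 0 to 1 super elongation genes lowered. Among other named genes the calls of HEXIM2, NELFA, WDR61, ZNF451 and FANCD2 were lost, and TOP3A passed, in at least 1 setting. HEXIM2 and EAF2 rested on few counts, 21 to 50 and 13 to 35 per sample, and CCNK on 243 to 389.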
